A study of Rattus norvegicus with 14 samples.

Results

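The genes described here are the class B ephrins and their Eph receptors, measured in the foreskin of newborn rats. They were chosen by symbol, as a family picked with earlier results of these data known: Efnb1, Efnb2 and Efnb3 encode the ligands, and Ephb1, Ephb2, Ephb3, Ephb4 and Ephb6 the receptors. Each was taken from a probe set annotated with that symbol alone. This gave 7 of the 8 genes, among 14497 genes measured in all, and each of the 7 had 1 such probe set, so no choice between probe sets was needed. Expression of Ephb4 was not analysed here.

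Sprague Dawley dams were given corn oil, the vehicle, or flutamide in a dose of 5 mg/kg/day, by gavage on each of gestational days 16 to 20. Flutamide blocks the androgen receptor. Foreskin was collected from their pups on postnatal day 5, and 2 foreskins of a litter were pooled for 1 Affymetrix Gene 1.0 ST array. Each group held 7 litters, and the litter was the replicate. The dams were dosed, not the pups, and the last dose came before birth.

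Class B ephrins are ligands anchored in the cell membrane, so they meet their receptors only where cells touch. Binding sends a signal into both cells: forward through the receptor, a tyrosine kinase, and in reverse through the ephrin's own tail. The exchange usually ends in repulsion or adhesion, and it sorts cells at tissue boundaries, separates arteries from veins and brings midline tissues together. Mice lacking EphB2 and EphB3, or carrying an ephrin-B2 without its cytoplasmic tail, can fail to close the urethra, which is the malformation called hypospadias.

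Values are log2 levels made by the robust multi-array average (RMA), a method that corrects background, normalises between arrays and summarises the probes of a probe set. Probes differ in brightness, so levels of different probe sets do not rank genes by amount of RNA. A summed level, given below for some gene lists, adds the unlogged values of the list's probe sets. The brightest probe sets therefore weigh most in it. Among skin genes, corn oil means were 9.87 for the basal keratin Krt14, 10.4 for the suprabasal gene Sbsn and 10.3 for the dermal matrix gene Dpt. No other tissue was measured beside them, so these values do not test the tissue label. Medians over genes lay between 5.88 and 5.92 in all 14 samples. Precision depends on the number of arrays and on the spread between litters. A group difference had a standard error of 0.07 in the median gene. Among the members the standard error ran from 0.06 for Ephb6 to 0.10 for Efnb1.

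For Efnb2, the member with the smallest p-value in the comparison below, the 250 bases before the RefSeq gene start are shown because of their composition, with each CG dinucleotide in capitals. They lie at chr16:87484965-87485214 on the plus strand of GRCr8, a RefSeq assembly of the rat genome.
Efnb2: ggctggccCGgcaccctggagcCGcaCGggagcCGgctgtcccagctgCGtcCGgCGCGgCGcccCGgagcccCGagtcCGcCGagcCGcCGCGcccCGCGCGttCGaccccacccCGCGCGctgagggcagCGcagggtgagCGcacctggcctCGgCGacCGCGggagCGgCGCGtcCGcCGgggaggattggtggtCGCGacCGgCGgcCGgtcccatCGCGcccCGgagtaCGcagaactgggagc
This stretch held 43 CG dinucleotides and was 80.4% G and C. Only 0.663% of the 33469 rat promoters of this length held as many CG dinucleotides, and the median promoter held 5. The windows of Efnb1 and the 5 receptors held between 12 and 22, Ephb2 the most and Ephb4 the fewest. CG-rich promoters are common for genes of development, and the count says nothing on whether the gene is used in this tissue.

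Since the drug acts on the androgen receptor, the same windows were searched on both strands for the receptor's palindrome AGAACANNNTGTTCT and for its 6-base arm, TGTTCT or AGAACA. The windows found were those of Efnb1, Efnb2, Ephb1, Ephb2, Ephb3, Ephb4 and Ephb6, and Efnb3 was not searched. The palindrome was in none of these 7 windows, and in 0.012% of all promoters. The arm was in 1 member window, that of Ephb6, against 17.5% of all promoters. The Ephb6 window is shown with the arm in capitals, at chr4:71458382-71458631 on the plus strand of GRCr8.
Ephb6: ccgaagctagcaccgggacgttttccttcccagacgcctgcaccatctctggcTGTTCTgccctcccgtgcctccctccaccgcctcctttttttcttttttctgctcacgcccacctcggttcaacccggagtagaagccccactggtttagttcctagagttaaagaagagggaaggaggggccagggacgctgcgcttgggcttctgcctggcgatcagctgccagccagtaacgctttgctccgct
A match is a match of letters and not a binding site, and its absence elsewhere says only that these letters are not in these 250 bases.

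The comparison asked whether foreskin levels of these ligands and receptors differed between litters exposed to the antiandrogen before birth and vehicle litters. None of the 7 members passed the test at an adjusted p under 0.05 (limma's moderated test, Benjamini-Hochberg over 14497 genes), where 0.0069% of all genes did. None had an unadjusted limma p under 0.05 either, against 9.16% of all genes, and none had an exact permutation p under 0.05. The members' adjusted p ran from 0.559 to 0.971 in limma. The values of the 2 groups overlapped for all 7 members, while 0.124% of all genes showed no overlap. The 3 ligands and Ephb1 had lower means in flutamide litters, and Ephb2, Ephb3 and Ephb6 had higher ones. The median difference over the 7 was -0.06 on the log2 scale, beside 0.0048 over all genes. For each of the 7 the 95% confidence interval left out a change of 1.3-fold in either direction, as it did for 92.9% of all genes. This bound is on RMA values, and RMA pulls differences of dim probe sets toward 0. The dimmest of the 7 probe sets were those of Efnb3 and Ephb1, with corn oil means of 5.22 and 5.38.

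**Figure D1:**
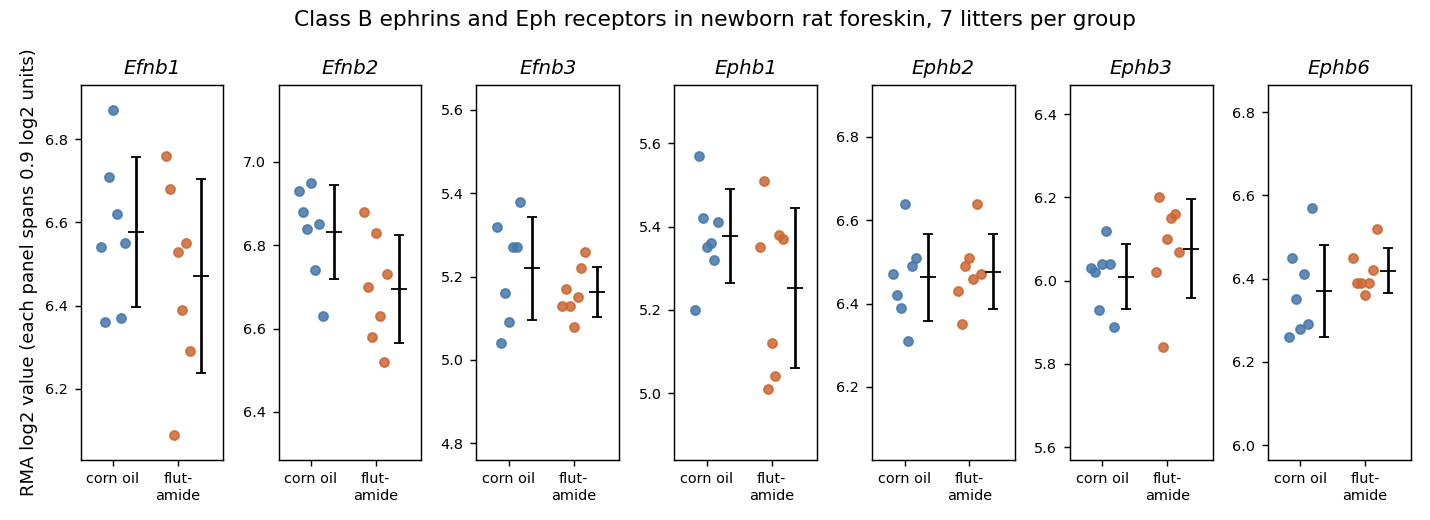
RMA log2 values of the 7 members (vertical axis) in each corn oil litter (blue points) and flutamide litter (orange points), with the group mean and SD in black. Every panel spans 0.9 log2 units, and the groups overlap in all 7. Efnb1 has the widest scatter, with litters 0.78 apart.

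Among the ligands, Efnb2 had the smallest p-value of the family. Ephrin-B2 marks arterial endothelium and, in the genital tubercle, is made by the epithelium that forms the urethra. Its corn oil litters ran from 6.63 through a median of 6.85 to 6.95, and its flutamide litters from 6.52 through 6.70 to 6.88. Thus 3 flutamide litters lay below every corn oil litter, 2 corn oil litters lay above every flutamide litter, and 6 of 7 flutamide litters lay below the corn oil median. The means were 6.83 ± 0.11 (SD, n = 7) and 6.70 ± 0.13 (SD, n = 7). Flutamide litters stood at 0.910-fold of corn oil, a log2 difference of -0.14 (SE 0.07) with a 95% interval from -0.28 to 0.0045. Its unadjusted limma p was 0.0571 and its adjusted p 0.559, and it ranked 1476 of 14497 genes by p-value. The exact permutation test gave a p of 0.0577 for Efnb2.

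In bulk tissue, fewer cells of a type and less RNA per cell cannot be told apart. Markers of endothelium, and of arterial endothelium, were therefore read beside Efnb2. Markers of the urethral epithelium were not read, and those of smooth muscle, pericytes and other cell types are given further below. Of 14 measured endothelial genes, 10 had lower means in flutamide litters, with a median difference of -0.05. None of the 14 had an unadjusted limma p under 0.05, against 9.16% of all genes. The log2 of the summed level of the 14 ran from 10.48 to 10.75 in corn oil and from 10.43 to 10.60 in flutamide litters. Tek, an angiopoietin receptor of endothelium, differed by -0.18 (SE 0.10) and Pecam1, an endothelial adhesion molecule, by -0.12 (SE 0.08). Of 9 arterial genes, 5 had lower means, with a median of -0.04 and a summed log2 level of 8.85 to 8.94 in corn oil and 8.81 to 8.94 in flutamide litters. Of these 9, 1 had an unadjusted limma p under 0.05, beside 3.46% of all genes in the lower direction. It was Unc5b, a netrin receptor of arteries, which differed by -0.16 (SE 0.06, limma adjusted p = 0.427). Sox17, an arterial transcription factor, differed by -0.15 (SE 0.08). The part of vessel content in the Efnb2 values was not tested.

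Efnb1, on the X chromosome, encodes ephrin-B1, whose loss in people gives craniofrontonasal syndrome, a disorder of the facial midline. It varied most between litters. Corn oil litters ran from 6.36 through a median of 6.55 to 6.87, and flutamide litters from 6.09 through 6.53 to 6.76. The medians were thus closer than the means, 6.58 ± 0.18 and 6.47 ± 0.23 (SD, n = 7 each). The 2 flutamide litters of replicates 3 and 7 lay below all corn oil litters, and 1 corn oil litter, replicate 4, lay above all flutamide litters. The difference was -0.11 (SE 0.10; limma adjusted p = 0.789), with an interval from -0.31 to 0.10. It was -0.04 without flutamide replicate 3, the lowest sample, and -0.06 without corn oil replicate 4, the highest. It was -0.15 without flutamide replicate 1.

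Efnb3 encodes ephrin-B3, best known as the midline barrier that spinal axons do not cross. Its corn oil litters ran from 5.04 through a median of 5.27 to 5.38, and its flutamide litters from 5.08 through 5.15 to 5.26. All 7 flutamide litters lay below the corn oil median, but they lay inside the corn oil range. Their spread was narrower, with an SD of 0.06 against 0.12 (n = 7 each), a gap that was not tested. The difference was -0.06 (SE 0.06; limma adjusted p = 0.817), with an interval from -0.18 to 0.07. It was -0.03 without corn oil replicate 7, which had the highest value, and -0.09 without corn oil replicate 2, which had the lowest.

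**Figure D2:**
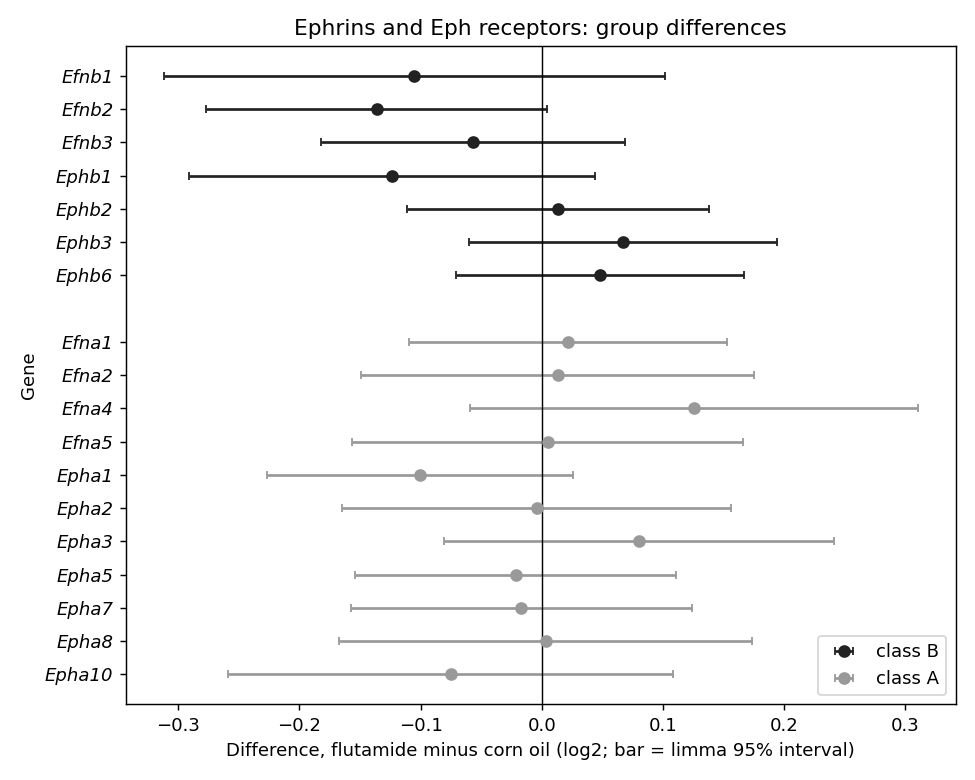
Difference between flutamide and corn oil litters for each gene (horizontal axis, log2; points) with its limma 95% confidence interval (bars), for 7 class B genes (black) and 11 class A genes (grey). Every interval crosses 0. The Efnb2 interval comes nearest to leaving it out among the class B genes.

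Among the receptors, Ephb2 and Ephb3 are the pair whose joint loss impairs urethral closure in mice. Ephb2 ran from 6.31 through a median of 6.47 to 6.64 in corn oil and from 6.35 through 6.47 to 6.64 in flutamide litters. The ranges were nearly the same. Its difference of 0.01 (SE 0.06; limma adjusted p = 0.971) had an interval from -0.11 to 0.14, and its sign turned without corn oil replicate 5 or flutamide replicate 6, at -0.01 each. Ephb3 ran from 5.89 through 6.03 to 6.12 in corn oil and from 5.84 through 6.10 to 6.20 in flutamide litters. For Ephb3, 3 flutamide litters lay above every corn oil litter and 1 lay below every one. Its means were 6.01 ± 0.08 and 6.08 ± 0.12 (SD, n = 7 each), a difference of 0.07 (SE 0.06; limma adjusted p = 0.776) with an interval from -0.06 to 0.19. It was 0.11 without flutamide replicate 3.

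Ephb1, a receptor best known from axon guidance, had the largest difference among the receptors. Its corn oil litters ran from 5.20 through a median of 5.36 to 5.57, and its flutamide litters from 5.01 through 5.35 to 5.51. The medians were close, but 3 flutamide litters, replicates 3, 4 and 5, lay below all corn oil litters. The means were 5.38 ± 0.11 and 5.25 ± 0.19 (SD, n = 7 each). The difference of -0.12 (SE 0.08; limma adjusted p = 0.675) had an interval from -0.29 to 0.04.

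Ephb6 encodes a receptor whose kinase domain is inactive, so it signals through partners, and it is known from T lymphocytes. Its corn oil litters ran from 6.26 through a median of 6.35 to 6.57, and its flutamide litters from 6.36 through 6.39 to 6.52. All 7 flutamide litters lay above the corn oil median and inside the corn oil range, with an SD of 0.05 against 0.11. The difference was 0.05 (SE 0.06; limma adjusted p = 0.838), with an interval from -0.07 to 0.17. It was 0.08 without corn oil replicate 7, the highest sample. It was 0.01 when the arrays with the widest and the narrowest spread of values, corn oil 1 and flutamide 7, were both left out. Of 9 lymphocyte genes, 6 had higher means in flutamide litters, with a median difference of 0.03 and a summed log2 level of 8.43 to 8.55 in corn oil and 8.41 to 8.58 in flutamide litters. Of that list Cd3g, a T cell receptor chain, alone had an unadjusted limma p under 0.05, against 9.16% of all genes in either direction. Its means were low, at 2.84 in corn oil and 3.01 in flutamide litters, a difference of 0.17 (SE 0.08; limma adjusted p = 0.542). Differences over the list ran from -0.17 to 0.17.

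No pair of members was shown to vary together between litters when both groups were pooled. The deviations of each litter from its group mean were correlated for all 21 pairs of members over 14 litters. Pearson's r ran from -0.49 to 0.46, was above 0 for 9 pairs, and gave no permutation p under 0.05, with a lowest adjusted p of 0.733 over the 21 pairs. With corn oil 1 and flutamide 7 both left out, a choice made after seeing the data, the lowest adjusted permutation p was 0.0941. Again no pair passed. Within each group of 7 litters r was not tested, and a pooled r near 0 can hide unlike values. Efnb3 with Ephb1 had -0.58 in corn oil and 0.55 in flutamide litters, and Efnb2 with Ephb6 had -0.84 and 0.12. Other pairs were more alike, as Ephb1 with Ephb6 at 0.63 and 0.47. Over all 14 litters the highest r was between the receptors Ephb1 and Ephb6, with r = 0.46 (permutation p = 0.0525, adjusted 0.733) and Spearman's rho = 0.53 (permutation p = 0.0337, adjusted 0.708). Without the 2 litters farthest from the Ephb1 median r was 0.61. The lowest was between the ligands Efnb2 and Efnb3, with r = -0.49 (permutation p = 0.071, adjusted 0.733) and rho = -0.46 (permutation p = 0.102, adjusted 0.913), and r was -0.24 without the 2 farthest litters. The ligands Efnb1 and Efnb2 had r = 0.38 (permutation p = 0.21, adjusted 0.898) and rho = 0.28 (permutation p = 0.348, adjusted 0.913), and r was 0.08 without the 2 farthest. The receptors Ephb2 and Ephb3 had r = -0.13 (permutation p = 0.649, adjusted 0.936) and rho = -0.15 (permutation p = 0.609, adjusted 0.913), and r was -0.52 without the 2 farthest.

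**Figure D3:**
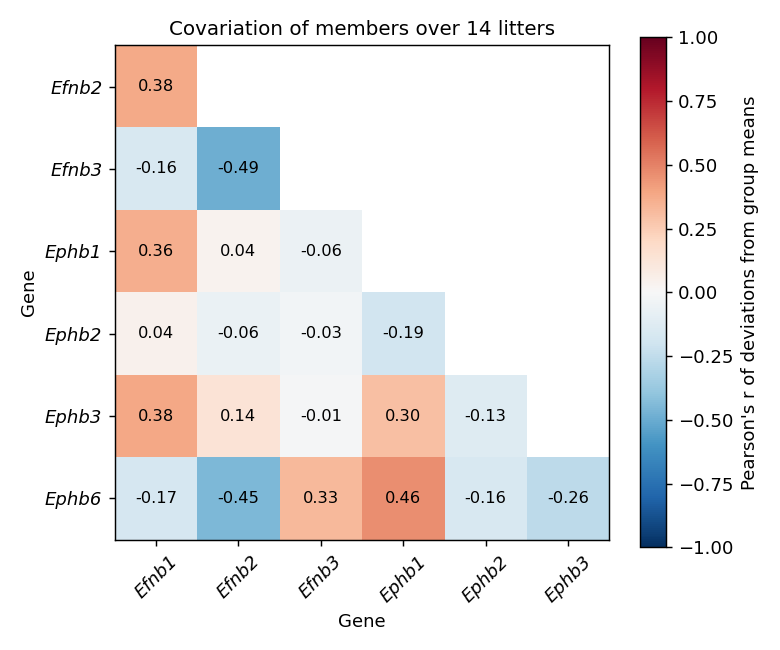
Pearson's r between members (gene names on both axes) of the deviations of 14 litters from their group means, in colour from -1 (blue) to 1 (red) and as numbers. The values run from -0.49 for Efnb2 with Efnb3 to 0.46 for Ephb1 with Ephb6, and none passed the permutation test.

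Over all genes measured, those whose litter deviations most resembled each member's were not other ephrins or Eph receptors. Each r below was picked as one of the highest over the same 14 litters, so it is a description, with no test. Among the 14497 genes, symbols that begin with LOC, RGD, Olr, Vom or Mir were passed over. For Efnb2 the nearest were Sp100, a nuclear body gene induced by interferon, with r = 0.90, Lrrc36 with 0.85 and Fyco1, an adaptor of autophagosome transport, with 0.84. For Efnb1 they were Fra10ac1 with 0.93, Dus4l with 0.91 and Psme3, a proteasome activator, with 0.90. For Efnb3 they were Slc38a9, a lysosomal amino acid sensor, with 0.91, Galnt7 with 0.89 and Fis1, a mitochondrial fission gene, with 0.88. Among the receptors, Ephb1 was followed by Parpbp with 0.88, Ocel1 with 0.87 and the odorant receptor gene Or1e27b with 0.86. Ephb2 was followed by Camk2g, a calcium/calmodulin-dependent kinase, with 0.91, Ccnk with 0.90 and Prkch with 0.87. Ephb3 was followed by the sialyltransferase St3gal4 with 0.90, Pdc with 0.82 and Usf2 with 0.81. Ephb6 was followed by the potassium channel genes Kcng2 with 0.90 and Kcnh2 with 0.86, with the transporter Slc5a4 between them at 0.89.

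Class A ephrins, which are held in the membrane by a lipid anchor, and their receptors were read in the same way. Of 14 genes listed, 11 were measured, and Efna3, Epha4 and Epha6 were not. None of the 11 passed in limma at an adjusted p under 0.05, against 0.0069% of all genes. None had an unadjusted limma p under 0.05, against 9.16% of all genes. Of the 11, 6 had higher and 5 lower means in flutamide litters, with a median difference of 0.0031. The smallest p-values were those of Epha1, an epithelial receptor, with -0.10 (SE 0.06; limma adjusted p = 0.648), and the ligand Efna4 with 0.13 (SE 0.09; limma adjusted p = 0.705). Leaving out any 1 litter put the class A median between -0.025 and 0.020.

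Downstream of the receptors, forward signalling runs through adaptors, exchange factors and small GTPases that reshape the actin skeleton. Of 25 such genes listed, 24 were measured, and none passed in limma at an adjusted p under 0.05. Their median difference was -0.0017, with 14 lower and 10 higher. It lay between -0.027 and 0.0026 when any 1 litter was left out, and was -0.013 with each sample centred on its median. Of these genes 2 had an unadjusted limma p under 0.05, both lower, against 3.46% of all genes in that direction. Pak1, a kinase driven by Rac and Cdc42, had means of 6.53 ± 0.07 and 6.39 ± 0.08 (SD, n = 7 each), a difference of -0.14 (SE 0.05; limma adjusted p = 0.433). For Kalrn, an exchange factor that EphB receptors recruit in dendritic spines, the means differed by -0.11 (SE 0.05; limma adjusted p = 0.52).

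Reverse signalling uses SH2 and PDZ domain proteins that bind the ephrin tail, and proteases that cut ephrins and their receptors. Of 20 such genes listed, 15 were measured. None passed in limma, 13 had higher and 2 lower means in flutamide litters, and the median difference was 0.03. With each sample centred on its median it was 0.018, and it lay between 0.027 and 0.045 when any 1 litter was left out. Over all genes 47.7% had lower means in flutamide litters. The 1 gene of the list with an unadjusted limma p under 0.05, beside 5.7% of all genes in the higher direction, was Pard6b. It encodes a polarity protein related to one that ephrin-B1 binds. Its means were 5.61 ± 0.22 in corn oil and 5.80 ± 0.05 in flutamide litters (SD, n = 7 each), a difference of 0.19 (SE 0.08; limma adjusted p = 0.502).

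**Figure D4:**
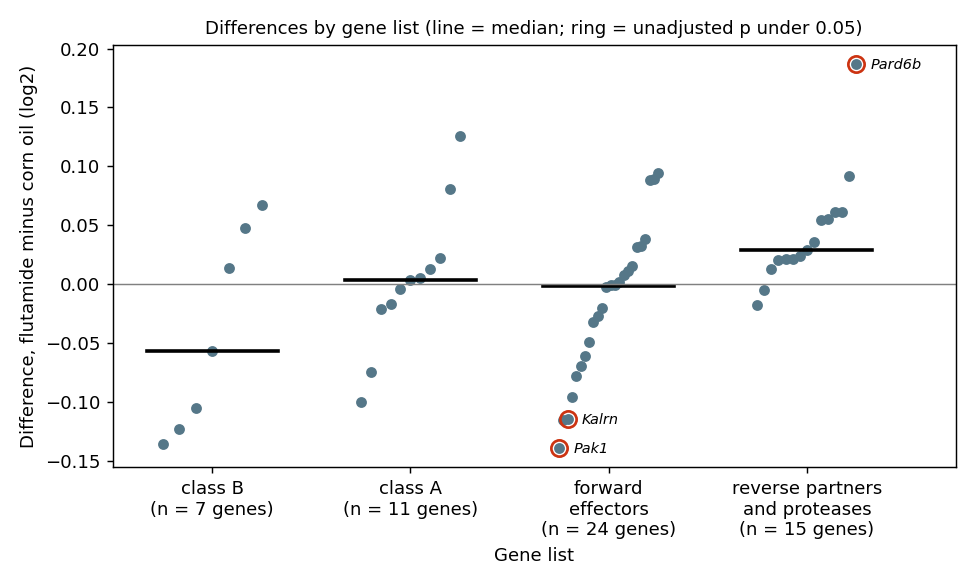
Difference between flutamide and corn oil litters (vertical axis, log2) for every measured gene of 4 lists (horizontal axis), with the list median as a line and a ring around genes with an unadjusted limma p under 0.05. The class B genes carry no ring, and Pak1, Kalrn and Pard6b are the ringed genes of the other lists.

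Markers of the cell types that share the tissue were read as a check of its makeup. Of 14 smooth muscle and pericyte genes, 10 had lower means in flutamide litters and 5 had an unadjusted limma p under 0.05, all lower, beside 3.46% of all genes in that direction, and the list median was -0.11. The summed log2 level of that list ran from 11.38 to 11.55 in corn oil and from 11.26 to 11.54 in flutamide litters. Higd1b, a pericyte marker, differed by -0.38 (SE 0.07; limma adjusted p = 0.179) and Des, the muscle filament gene desmin, by -0.34 (SE 0.07; limma adjusted p = 0.302). Skeletal muscle genes had a median of -0.18 over 6 measured of 8 listed, 5 of them lower, and differences ran from -0.29 to 0.13. Of these 6, 1 had an unadjusted limma p under 0.05, beside 3.46% of all genes in the lower direction. It was Ckm, muscle creatine kinase, at -0.19 (SE 0.07, limma adjusted p = 0.443). Medians were -0.03 for 7 basal keratinocyte genes, 0.0008 for 5 suprabasal genes, -0.02 for 10 fibroblast genes, -0.02 for 6 Schwann cell genes and 0.03 for 7 venous and lymphatic genes. Single genes lay away from these medians. Suprabasal differences ran from -0.09 to 0.28, the highest that of Cnfn, a cornified envelope gene (SE 0.07; limma adjusted p = 0.302). Among fibroblast genes Dpt differed by -0.17 (SE 0.07; limma adjusted p = 0.457). Cnfn and Dpt were the only genes of these 5 lists with an unadjusted limma p under 0.05, against 9.16% of all genes. The part of these cell types in the members' values was not tested.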

How the data were processed

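Total RNA from 14 litters was amplified with a NuGEN kit and hybridised to 1 array each, per the labels' protocols. The authors deposited log2 values of 28826 probe sets, made with RMA per the submitters' processing notes. No source used here states the RMA version, the level of summary or the build. RMA pulls differences of dim probe sets toward 0 and removes changes common to most genes. Presence was not called for any gene.

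The 15209 probe sets with a single symbol in GEO's annotation were kept, symbols were updated through RefSeq (14471 of 14497 genes matched), and the brightest probe set stood for its gene. Groups were fitted with limma 3.58.1 (R 4.3.3; lmFit, eBayes; two-sided; no block), adjusted by Benjamini-Hochberg over all genes at a threshold of 0.05, and was tested on simulated data. Exact permutation tests, two-sided, took all 3432 splits, so 0.000583 is the smallest p. Correlations used 100000 permutations within groups.

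The members and lists were chosen with earlier results of these data known. Named genes were all members, per pathway list up to 4 genes with an unadjusted p under 0.05 or else the 2 smallest, up to 2 per marker list, and per member the 3 genes of highest r, passing over symbols that begin with LOC, RGD, Olr, Vom or Mir. Alternatives were other scalings, filters, summaries and models, a replicate block and each litter left out.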

Additional observations from a re-analysis of the deposited data

How the results depend on the processing

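None of the 7 members passed in limma at an adjusted p under 0.05 under any setting that held it, and 6 of them kept the sign of their difference throughout. Efnb3 and Ephb1 were not in the setting with genes at or above the median level only. Ephb2 turned to -0.012 without corn oil replicate 5 and to -0.014 without flutamide replicate 6, and reached 0.044 without corn oil replicate 4. The count of members with an unadjusted limma p under 0.05, 0 as reported, became 1 with each sample centred on its median, 1 with genes at or above the median level only, 1 with the trend and robust eBayes and 1 with the replicate block, in each case Efnb2. With 1 litter left out at a time it was 0 to 1. The gene was Efnb2 without corn oil replicates 5 or 7 or flutamide replicates 1 or 4, with a limma adjusted p not below 0.388. It was Ephb1 without flutamide replicate 2, with a limma adjusted p of 0.539. Over these fits the Efnb2 difference lay between -0.17 and -0.11, and that of Ephb1 between -0.17 and -0.08. With the replicate block Efnb2 had a limma adjusted p of 0.497, and the block changed no other call. Deviations of litters that share a number correlated at -0.07 to 0.15, and 1 of the 7 pairs was over 0.1. The labels do not say what the numbers mark, and a shared day or batch was not tested. Leaving out corn oil 1 and flutamide 7 together was chosen after seeing the data, and left Efnb2 at -0.13 (limma adjusted p = 0.776). Averaging probe sets changes no member's difference, since each has 1. Without detection calls, these arrays cannot show whether a member with a low value was expressed.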
